A study of Mus musculus with 15 samples.

Results

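Chemokine ligands and receptors of the injured mouse cortex were described as a set of 38 genes named by symbol. They comprised ligands of the CC, CXC, CX3C and XC families, signalling receptors and atypical receptors. Of these, 37 were found by gene identifier among the 33223 genes of the count tables, 28 ligands and 9 receptors. Ccl19 was not analysed here.

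The data are RNA-seq libraries of cortex taken 1 day after controlled cortical impact (CCI), a moderate mechanical brain injury to the right parietal cortex. Both genotypes carried EphA4f/f, in which Cre recombinase can remove part of the EphA4 gene, and the WT mice had no Cre. KO mice carried EphA4f/f-VeCadCreERT2, a tamoxifen-dependent Cre under the VE-cadherin promoter of endothelial cells. Dissociated tissue was passed over CD45 and CD31 microbeads, and the CD45 immune cells and the flow-through, labelled as all other cortical cells, were sequenced. The flow-through was compared in 4 libraries of WT and 3 of KO, and the CD45 fraction in 3 of WT and 4 of KO. All groups were injured. The age and sex of the mice and the tamoxifen treatment are not given in the sources used.

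Total counts ran from 11574414 to 31337948 per library. Ptprc, which encodes CD45, lay at 805 to 1043 CPM (counts scaled to a common library total) in the CD45 libraries and at 0.660 to 1.22 CPM in the flow-through. Endothelial RNA did not follow the flow-through label, since 9 endothelial markers summed to 42.2 to 64.1 CPM there and to 312 to 521 CPM in the CD45 libraries. EphA4 itself did not separate the genotypes in the flow-through (log2 fold change -0.07, SE 0.09) or in the CD45 fraction (-0.17, SE 0.31), and neither fraction is an endothelial isolate, so these values do not check the deletion. Within the CD45 fraction, WT replicate 3 and KO replicate 4 stood apart. Their 7 monocyte and macrophage markers summed to 3093 and 4402 CPM, against 5820 to 7286 CPM in the other CD45 libraries, and their oligodendrocyte markers were the highest. A library labelled flow-through WT replicate 5 was deposited with the CD45 counts. It held CD45 markers, with 4 leukocyte genes summing to 3319 CPM, and was left out.

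Chemokines are small secreted proteins that direct the migration of leukocytes along a gradient, by way of G protein-coupled receptors on the leukocyte. Atypical receptors bind chemokines without G protein signalling and remove or transport them. In the injured brain, resident glia, endothelium and neurons as well as the infiltrating leukocytes can make ligands, and neutrophils and monocytes are drawn in by different subsets of them.

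Promoter sequence is shown for 4 CXC ligands that have different patterns between the fractions and share a motif close to the start. Cxcl1, Cxcl2 and Cxcl3 act through Cxcr2 on neutrophils, and Cxcl10 acts through Cxcr3 on T cells. Each sequence is the 250 bases before the transcription start in RefSeq (GRCm38.p6), 5′ to 3′ on the gene's strand, and capitals mark matches to the kappaB consensus, the binding motif of NF-kappaB. The windows are chr5:90890995-90891244 (plus strand) for Cxcl1, chr5:90903649-90903898 (plus strand) for Cxcl2, chr5:90785851-90786100 (plus strand) for Cxcl3 and chr5:92348890-92349139 (minus strand) for Cxcl10.
Cxcl1: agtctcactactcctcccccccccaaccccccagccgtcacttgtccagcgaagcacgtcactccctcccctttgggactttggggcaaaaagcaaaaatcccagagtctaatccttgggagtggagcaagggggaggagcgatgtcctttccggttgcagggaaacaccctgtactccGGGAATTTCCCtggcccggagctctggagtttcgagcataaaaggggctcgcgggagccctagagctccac
Cxcl2: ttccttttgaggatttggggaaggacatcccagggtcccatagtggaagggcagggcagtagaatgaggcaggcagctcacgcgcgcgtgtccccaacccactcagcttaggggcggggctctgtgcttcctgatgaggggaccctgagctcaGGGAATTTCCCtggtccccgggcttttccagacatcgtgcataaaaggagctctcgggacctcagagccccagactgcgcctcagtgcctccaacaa
Cxcl3: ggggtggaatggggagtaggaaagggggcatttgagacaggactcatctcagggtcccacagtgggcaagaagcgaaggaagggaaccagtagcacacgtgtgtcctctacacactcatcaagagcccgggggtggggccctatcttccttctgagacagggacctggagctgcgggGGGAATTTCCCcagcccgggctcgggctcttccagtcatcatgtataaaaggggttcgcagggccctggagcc
Cxcl10: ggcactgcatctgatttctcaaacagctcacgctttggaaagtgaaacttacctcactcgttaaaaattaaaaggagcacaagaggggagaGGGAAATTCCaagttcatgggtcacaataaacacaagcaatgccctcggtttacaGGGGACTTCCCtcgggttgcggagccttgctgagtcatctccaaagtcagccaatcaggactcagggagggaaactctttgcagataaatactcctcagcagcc
The 3 neutrophil attractants carried the same stretch of capitals, which began at position -71 from the start in Cxcl1, -97 in Cxcl2 and -73 in Cxcl3. Promoter sequence was at hand for 28 of the 37 members, and the others were not searched. On both strands, the kappaB consensus was found in the promoters of 8 of these 28 members (28.6%). They were Cxcl1, Cxcl2, Cxcl3, Cxcl10, Ccl9, Ccr1, Ccrl2 and Ackr2. Among 32851 promoter windows of the same length, the consensus was found in 7.25%. Members were counted by gene and this background by window. The core of the interferon-stimulated response element, GAAANNGAAA on either strand, was found in Cxcl10 and Cxcl14 (7.14% of the members, 2.98% of all windows). In Cxcl10 it stands in lower case from position -213 to -204. These matches describe letters in a window and are not measured binding sites.

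The first comparison asked which fraction held the RNA of each ligand and receptor. It set the 7 CD45 libraries against the 7 flow-through libraries in edgeR's quasi-likelihood test, with calls at a Benjamini-Hochberg adjusted p under 0.05. Most chemokine genes were higher in the CD45 fraction, with 28 of 37 called higher and 4 called lower. Among all genes tested, 41.4% were called higher and 44.7% lower, and 86.6% had an unadjusted p under 0.05. After TMM scaling, 25 members had every CD45 library above every flow-through library and 3 had them below, against 33.1% and 36.4% of all genes (69.5% in either direction). These shares for all genes are the background against which the counts of members stand. By role, 21 of 28 ligands were higher and 2 lower, and 7 of 9 receptors were higher and 2 lower. A stricter rule, called and at least 3 log2 units apart, was met by 24 members upward and 0 downward, against 10.9% and 17.1% of all genes. The median log2 fold change over members was 5.82 (5.74 with the 2 genes at 0 in the flow-through set to their lower bound), and over all genes it was -0.05. All 37 members passed the filter on low counts in this fit. 11 of them did not pass it among the flow-through libraries alone (Ccl8, Ccl12, Ccl17, Ccl22, Ccl24, Cxcl9, Cxcl13, Xcl1, Ccr7, Cxcr3 and Cxcr6), and Ackr2 did not pass it among the CD45 libraries. In bulk RNA, fewer cells of a type and less RNA per cell cannot be told apart.

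**Figure D1:**
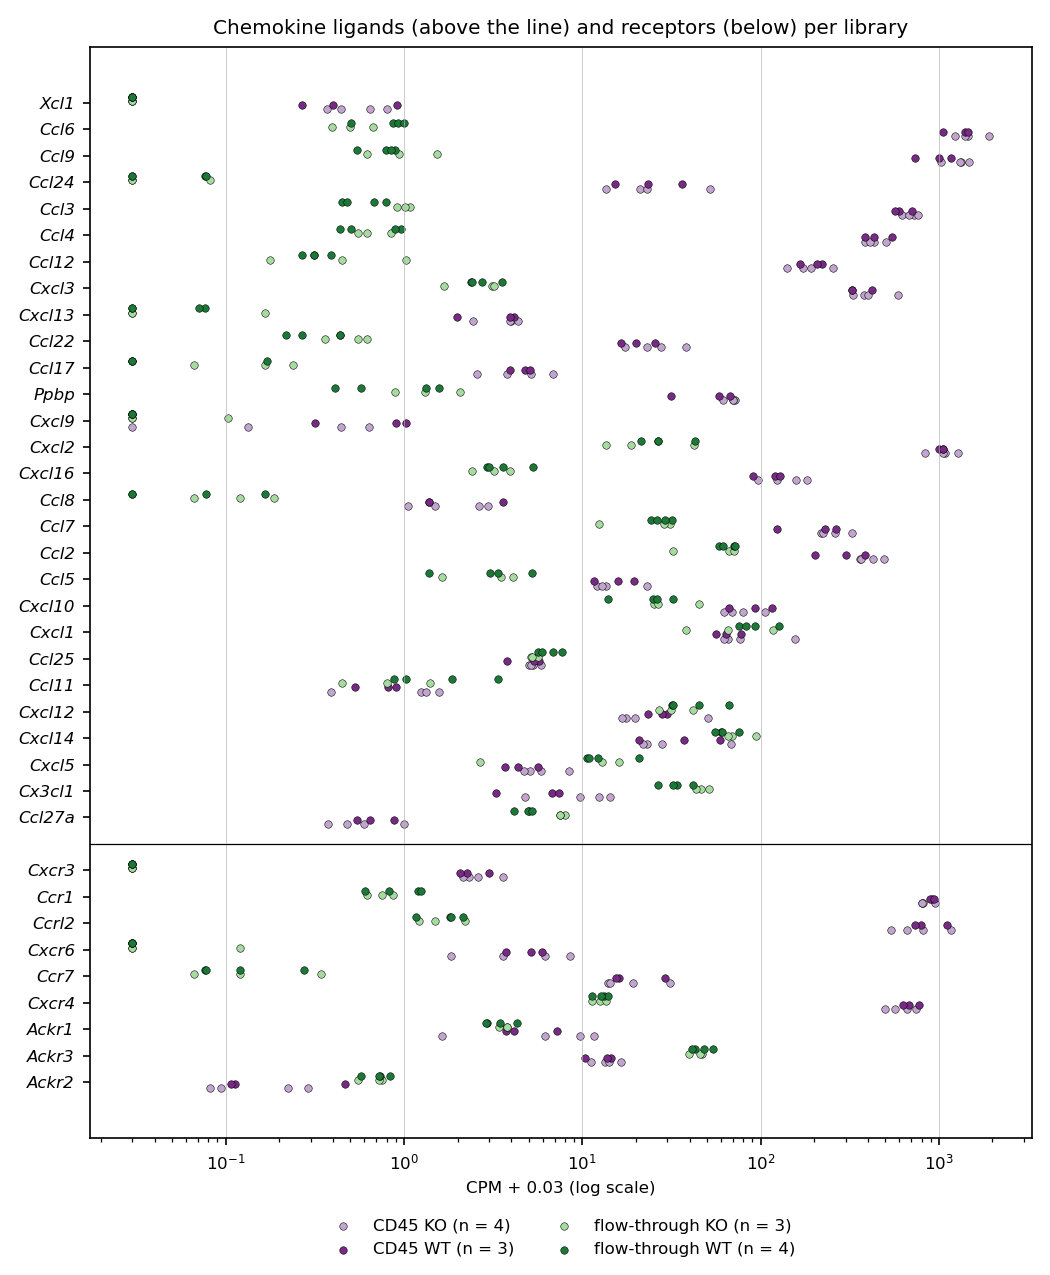
CPM plus 0.03 on a log scale for the 37 members, with 1 point per library, 28 ligands above the line and 9 receptors below it, each block ordered by the ratio of mean CPM between fractions (members at 0 in the flow-through first). Members at the top of each block have their CD45 libraries far to the right of the flow-through libraries. For Ccl27a, Cx3cl1, Ackr2 and Ackr3 the flow-through libraries lie to the right.

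The inflammatory CC ligands that act on monocytes, macrophages and T cells had some of the widest gaps between the fractions. Ccl3 ran from 566 CPM through a median of 678 to 766 in the CD45 libraries and from 0.422 through 0.761 to 1.05 in the flow-through. Ccl4 ran from 388 to 549 CPM (median 433) and from 0.407 to 0.937 CPM (median 0.587). The fractions lay far apart with no overlap, with log2 fold changes of 10.31 for Ccl3 (SE 0.14, adjusted p = 3.83e-18) and 9.93 for Ccl4 (SE 0.18, adjusted p = 6.12e-17). Ccl6 and Ccl9, rodent ligands of Ccr1 made by myeloid cells, behaved alike. Ccl6 lay at 1054 to 1916 CPM (median 1408) in the CD45 libraries and at 0.367 to 0.976 CPM in the flow-through (11.65, SE 0.20). Ccl9 lay at 738 to 1474 CPM (median 1171) and at 0.515 to 1.51 CPM (10.89, SE 0.21). Ccl5, which T cells, platelets and stimulated glia also make, had a smaller difference. It lay at 11.7 to 23.0 CPM (median 13.5) in the CD45 libraries, and at 1.36 to 5.16 CPM (median 3.33) in the flow-through, without overlap (2.84, SE 0.28, adjusted p = 1.4e-07).

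Among ligands that recruit monocytes through Ccr2, Ccl2 and Ccl7 were found in both fractions. Ccl2, the main monocyte attractant, ran from 202 CPM through a median of 364 to 493 in the CD45 libraries and from 32.3 through 66.4 to 71.5 in the flow-through. Ccl7, its neighbour and close relative, ran from 124 through 229 to 327 CPM and from 12.4 through 28.7 to 31.9 CPM. For both genes every CD45 library lay above every flow-through library, with log2 fold changes of 3.04 for Ccl2 (SE 0.18, adjusted p = 3.1e-10) and 3.68 for Ccl7 (SE 0.22, adjusted p = 8.27e-10). In both, flow-through KO replicate 3 was the lowest flow-through library and CD45 WT replicate 3 the lowest CD45 library. Ccl12, another Ccr2 ligand of the mouse, was far lower in the flow-through, at 141 to 254 CPM (median 193) in the CD45 libraries, and at 0.147 to 1.00 CPM (median 0.285) in the flow-through (9.49, SE 0.25, adjusted p = 1.73e-14). Ccl8 was low throughout, at 1.03 to 3.58 CPM in the CD45 libraries, and at 0 to 0.156 CPM in the flow-through (5.40, SE 0.50).

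The count ratio of a pair of genes within a library does not depend on library size, and ratios were chosen for this description after the values had been seen. Ccl2 to Ccl7 was 2.15 to 2.60 in the flow-through and 1.32 to 1.66 in the CD45 libraries. Ccl2 to Ccl12 was 66.4 to 260 in the flow-through and 1.21 to 2.56 in the CD45 libraries. Both ratios were higher in each flow-through library than in any CD45 library. Ccl12 had only 4 to 22 counts in a flow-through library, and which cells the flow-through counts came from was not tested.

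The neutrophil attractants of the CXC family, ligands of Cxcr2, divided into 2 patterns. Cxcl2 ran from 839 CPM through a median of 1056 to 1274 in the CD45 libraries and from 13.6 through 26.7 to 43.1 in the flow-through. Cxcl3 ran from 324 through 382 to 588 CPM and from 1.65 through 2.71 to 3.50 CPM. Their log2 fold changes were 5.82 (SE 0.27, adjusted p = 3.86e-11) and 7.72 (SE 0.21, adjusted p = 1.71e-14), with no overlap between fractions. Of the exon sequence of Cxcl2, 5.84% is shared in 50-base words with Cxcl3, and the part of shared reads in their counts was not tested. Ppbp, a Cxcr2 ligand stored in platelets, lay at 31.4 to 72.0 CPM in the CD45 libraries, and at 0.381 to 2.03 CPM in the flow-through (6.23, SE 0.26). The platelet and macrophage gene Pf4 lay at 111 to 253 CPM and 0 to 0.273 CPM. Of 6 platelet markers including Pf4, 5 were tested, with 4 called higher in the CD45 fraction and 1 lower. Gp9, Treml1 and Clec1b reached at most 1.21, 1.75 and 1.04 CPM in a CD45 library. Itga2b was higher in the flow-through, with 12.1 to 19.4 CPM against 2.97 to 5.51 CPM. Gp1bb had no count in 6 CD45 libraries. The part of platelets in the Ppbp value was not tested.

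Cxcl1 and Cxcl5 did not follow Cxcl2 and Cxcl3. Cxcl1 ran from 56.0 CPM through a median of 65.8 to 157 in the CD45 libraries and from 37.99 through 82.7 to 126 in the flow-through, and the fractions overlapped over most of their range. Its log2 fold change of 0.42 (SE 0.26, adjusted p = 0.145) did not pass. It passed without flow-through KO replicate 2 (0.67, adjusted p = 0.0207). Cxcl5, an attractant made by epithelial and stromal cells, ran from 3.64 through 5.04 to 8.44 CPM in the CD45 libraries and from 2.64 through 12.2 to 20.7 CPM in the flow-through. In CPM, before TMM scaling, flow-through KO replicate 3 was the only flow-through library below the highest CD45 library. The difference of -0.66 in the test, which uses TMM scaling, did not pass (SE 0.31, adjusted p = 0.0619). Cxcl5 was called lower in the CD45 fraction in 6 of 21 alternative settings. Among these, its difference was -0.90 without flow-through KO replicate 3 (adjusted p = 0.000502) and -0.76 without CD45 KO replicate 2 (adjusted p = 0.0476). The count ratio of Cxcl1 to Cxcl2 was 2.78 to 3.52 over the 7 flow-through libraries, against 0.0530 to 0.123 in the CD45 libraries.

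Small differences between fractions depended on scaling. TMM, the scaling of the main test, set the CD45 fraction 0.53 log2 units higher relative to the flow-through than library totals did. With library totals alone, a choice added after the data were seen, Cxcl1 was at -0.11 and Cxcl5 at -1.19 (adjusted p = 0.00278). The direction for Cxcl1 therefore turned with the scaling.

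Cxcl10, Cxcl9, Cxcl16, Cxcl13 and Xcl1, ligands known from lymphocyte recruitment, were each called higher in the CD45 fraction. Cxcl10, an interferon-induced ligand of Cxcr3, ran from 62.0 CPM through a median of 79.3 to 116 in the CD45 libraries and from 13.9 through 26.1 to 45.3 in the flow-through. The fractions did not overlap, and the log2 fold change was 2.13 (SE 0.21, adjusted p = 2.93e-07), with 5.91% of its exon sequence overlapping Art3 on the opposite strand. Cxcl9, a second Cxcr3 ligand, had 2 counts in all flow-through libraries and 77 in the CD45 libraries, a ratio of 38.3 with an exact 95% interval of 10.2 to 322 that covers counting error only. Cxcl16, a transmembrane ligand of Cxcr6, lay at 90.3 to 183 CPM and 2.38 to 5.25 CPM (5.74, SE 0.19), with 18.3% of its exon sequence overlapping Zmynd15 on the opposite strand. Cxcl13, which guides B cells, lay at 1.97 to 4.32 CPM and 0 to 0.136 CPM (7.03, SE 0.45). Xcl1, made by NK and T cells, had no count in the flow-through and 0.238 to 0.887 CPM in the CD45 libraries, at least 27.4-fold higher than a floor of 3 counts over the 7 flow-through libraries (0.0190 CPM), and 18.7% of its exon sequence overlaps another gene. Cxcl9, Cxcl13 and Xcl1 stayed under 5 CPM in every library.

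Ccl17 and Ccl22, which attract T cells through Ccr4 and are made by dendritic cells and macrophages, were both CD45 genes. Ccl22 lay at 16.6 to 38.1 CPM in the CD45 libraries and at 0.187 to 0.591 CPM in the flow-through (6.44, SE 0.24). Ccl17 lay at 2.52 to 6.79 CPM and at 0 to 0.208 CPM (6.53, SE 0.43). Ccl24, an eotaxin that acts on Ccr3 of eosinophils, had 3 counts in the flow-through and 4127 in the CD45 fraction, a ratio of 1368 (exact 95% interval 468 to 6638). Ccl24 was highest in CD45 WT replicate 3 (36.1 CPM) and KO replicate 4 (52.3 CPM), the 2 libraries that stood apart, against 13.6 to 23.4 CPM in the other 5. Ccl11, a second eotaxin, lay at 0.360 to 1.55 CPM in the CD45 libraries, and at 0.417 to 3.33 CPM in the flow-through and did not differ in the test (0.06, SE 0.38, adjusted p = 0.882).

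A few ligands were higher in the flow-through. Cx3cl1, or fractalkine, the membrane-bound ligand that neurons present to the Cx3cr1 receptor of microglia, ran from 26.6 CPM through a median of 41.6 to 51.4 in the flow-through and from 3.25 through 7.36 to 14.3 in the CD45 libraries. All flow-through libraries were above all CD45 libraries (log2 fold change -1.84, SE 0.22, adjusted p = 1.6e-06). Ccl27a, best known as a keratinocyte ligand for T cells, ran from 4.09 through 5.21 to 8.01 CPM in the flow-through and from 0.346 through 0.566 to 0.970 CPM in the CD45 libraries, again without overlap (-2.74, SE 0.20, adjusted p = 1.16e-09). These were the only ligands called lower in the CD45 fraction. CD45 KO replicate 2 had the highest Cx3cl1 of the CD45 libraries (14.3 CPM) and also the highest sum of 6 neuron markers (126 CPM, others 15.1 to 48.5) and of endothelial markers (521 CPM, others 312 to 367), and the part of those cells was not tested.

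Cxcl12 and Cxcl14, homeostatic ligands of stromal, vascular and neural cells, were present in both fractions. Cxcl12, the ligand of Cxcr4, ran from 16.7 CPM through 23.4 to 50.8 in the CD45 libraries and from 26.8 through 32.3 to 66.9 in the flow-through (0.01, SE 0.25, adjusted p = 0.981). Its highest CD45 library was again KO replicate 2, and the groups overlapped. Cxcl14 ran from 20.8 through 27.95 to 68.5 CPM in the CD45 libraries and from 55.3 through 65.3 to 94.5 CPM in the flow-through. Only CD45 WT replicate 3 (59.2 CPM) and KO replicate 4 (68.5 CPM) reached the flow-through range, the difference of -0.37 (SE 0.28, adjusted p = 0.23) did not pass, and without CD45 KO replicate 4 it was -0.64 (adjusted p = 0.00902). Those 2 libraries also had the highest sums of 5 oligodendrocyte markers, 1190 and 748 CPM, against 313 to 554 CPM in the other CD45 libraries, and the part of those cells was not tested. With library totals, Cxcl12 was at -0.52 (not called) and Cxcl14 at -0.90 (adjusted p = 0.00822). Ccl25, a thymus and gut ligand, lay at 3.78 to 5.81 CPM in the CD45 libraries, and at 5.14 to 7.66 CPM in the flow-through. Its call as higher in the CD45 fraction (0.33, SE 0.13, adjusted p = 0.0257) held in 12 of 21 alternative settings and turned to -0.20 with library totals. It was lost without any 1 of flow-through WT replicate 4, flow-through KO replicates 1 and 3 and CD45 WT replicates 1 and 2, with adjusted p from 0.0526 to 0.0853.

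The signalling receptors and Ccrl2 were all higher in the CD45 fraction. Ccr1, a receptor of neutrophils and monocytes for Ccl3, Ccl5, Ccl6 and Ccl9, ran from 800.5 CPM through a median of 887 to 947 in the CD45 libraries and from 0.571 through 0.796 to 1.22 in the flow-through (10.59, SE 0.15, adjusted p = 4.34e-18). Ccrl2, an atypical receptor that binds chemerin and is induced on activated neutrophils and macrophages, lay at 538 to 1168 CPM and 1.14 to 2.16 CPM (9.50, SE 0.27). Cxcr4, the Cxcl12 receptor, lay at 499 to 770 CPM and 11.3 to 13.9 CPM (6.23, SE 0.12). None of these 3 overlapped between fractions, and Ccrl2 was highest in CD45 WT replicate 3 (1114 CPM) and KO replicate 4 (1168 CPM). The lymphocyte and dendritic cell receptors were low. Ccr7, which takes T cells and dendritic cells to lymph nodes, lay at 14.0 to 31.1 CPM and 0.0367 to 0.312 CPM (7.81, SE 0.39). Cxcr3 had no count in the flow-through and 2.02 to 3.54 CPM in the CD45 libraries, at least 133-fold above the floor. Cxcr6 had 2 flow-through counts and 769 CD45 counts, a ratio of 382 (exact 95% interval 106 to 3164).

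Of the 3 numbered atypical receptors, Ackr2 and Ackr3 were called lower in the CD45 fraction and Ackr1 higher. Ackr3, which scavenges Cxcl12, ran from 39.7 CPM through a median of 45.5 to 54.2 in the flow-through and from 10.3 through 13.8 to 16.4 in the CD45 libraries, with no overlap (-1.24, SE 0.10, adjusted p = 5.32e-09). Ackr2, a scavenger of inflammatory CC ligands, was near the limit of detection, at 0.521 to 0.809 CPM in the flow-through and 0.0515 to 0.436 CPM in the CD45 libraries (-1.54, SE 0.40, adjusted p = 0.00201). Its groups did not overlap in CPM and overlapped after TMM scaling. The Cxcl12 receptors lay on opposite sides, Cxcr4 called higher and Ackr3 called lower in the CD45 fraction, while Cxcl12 itself was not called. Ackr1, the red cell and venular receptor also called the Duffy antigen, lay at 1.60 to 11.6 CPM in the CD45 libraries, and at 2.85 to 4.26 CPM in the flow-through. It was called higher in the CD45 fraction (1.31, SE 0.32, adjusted p = 0.0014) although the groups overlapped, and 25.7% of its exon sequence overlaps Cadm3 on the same strand. With flow-through WT replicate 5 included under its label, Ackr1 no longer passed (adjusted p = 0.0652). The highest Ackr1 and Ackr3 of the CD45 libraries, 11.6 and 16.4 CPM, were in KO replicate 2, the library with the most endothelial RNA, and the part of endothelium was not tested.

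The flow-through level as a percent of the CD45 level was set beside that of 4 leukocyte genes, as mean CPM over 7 libraries each. Ptprc stood at 0.105%, Itgb2 at 0.119%, Laptm5 at 0.177% and Coro1a, the highest, at 1.08%, and none of 13 neutrophil and monocyte markers exceeded 0.184%. 14 members were at or below 1.08%, namely Ccl3, Ccl4, Ccl6, Ccl9, Ccl12, Ccl24, Cxcl3, Cxcl13, Xcl1, Ccr1, Ccr7, Cxcr3, Cxcr6 and Ccrl2. The other 23 were above it, and 15 of them were above 10%. These included Ccl7 at 11.2%, Ccl2 at 17.1%, Ccl5 at 20.3%, Cxcl10 at 32.8% and Ackr1 at 55.3%. For these genes the flow-through counts were a larger share than those of the 4 leukocyte genes and the 13 markers.

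Per length, the order of the members differed between fractions. Levels between genes are given as RPKM, CPM divided by exon length in kilobases, mean ± SD over 7 libraries. In the CD45 fraction Ccl3 was first at 871 ± 95.9, followed by Ccl6 at 790 ± 147 and Ccl4 at 673 ± 93.4, neighbours in order that did not differ beyond their SD. Cxcl2 at 509 ± 61.8 came next. Ccl9 (378), Cxcr4 (361), Ccl12 (360), Ccrl2 (320), Ccl2 (318), Ccr1 (308) and Ccl7 (294) followed closely, each within its SD of the next. In the flow-through Ccl2 was first at 54.3 ± 12.3, then Cxcl1 at 45.6 ± 16.1, Cxcl14 at 37.6 ± 7.18 and Ccl7 at 32.7 ± 8.28, each again within the spread of the next. After a gap came Ackr3 at 13.6 ± 1.44, Cxcl2 at 13.3, Cxcl10 at 12.3 and Cx3cl1 at 10.03. With the longest transcript as the length, Ccl6 was first in the CD45 fraction at 985, and Ccl2 remained first in the flow-through at 56.4.

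**Figure D2:**
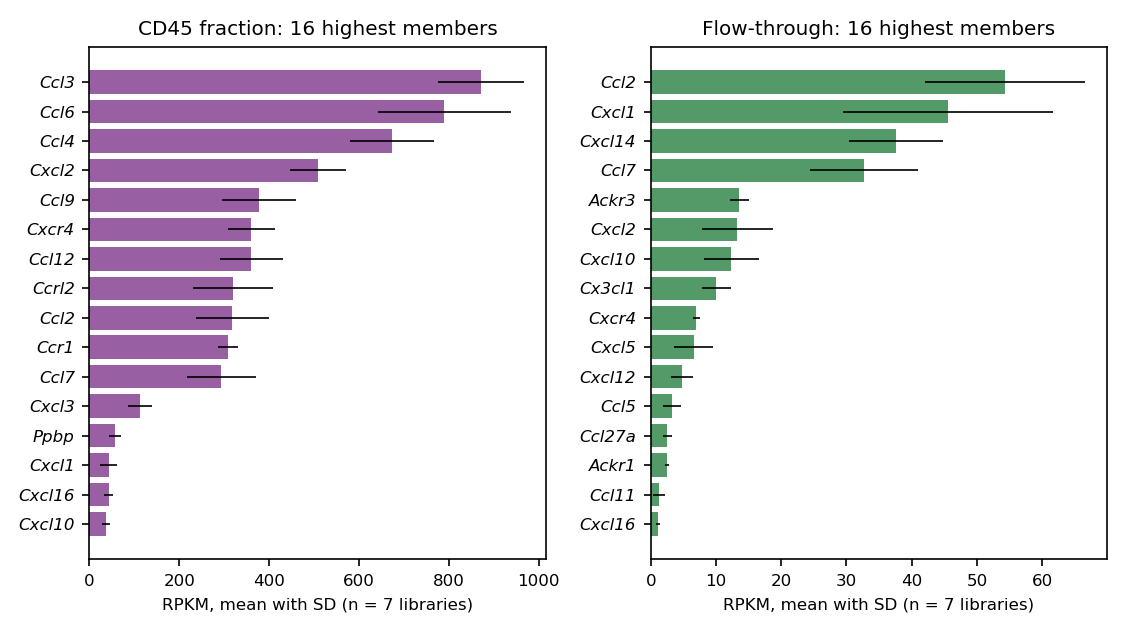
Mean RPKM with SD (n = 7 libraries) of the 16 members with the highest level in each fraction, on linear axes of different range. Ccl3 (871), Ccl6 (790) and Ccl4 (673) lead the CD45 fraction, and Ccl2 (54.3), Cxcl1 (45.6) and Cxcl14 (37.6) lead the flow-through.

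Many members lie in gene clusters, a position that the choice of genes did not use, and neighbours in a cluster did not always share a pattern. On chromosome 11 of GRCm38, Ccl2, Ccl7, Ccl11, Ccl12 and Ccl8 follow each other from position 82035571 to 82116799, with log2 fold changes of 3.04, 3.68, 0.06, 9.49 and 5.40. Further along, Ccl5, Ccl9, Ccl6, Ccl3 and Ccl4 lie between 83525778 and 83664683, with 2.84, 10.89, 11.65, 10.31 and 9.93. The CXC cluster of chromosome 5, from 90759360 to 90905938, holds Cxcl5, Ppbp, Cxcl3, Cxcl1 and Cxcl2, with -0.66, 6.23, 7.72, 0.42 and 5.82. On chromosome 8, Cx3cl1 (94772009 to 94782427, -1.84) lies between Ccl22 (from 94745590, 6.44) and Ccl17 (to 94812036, 6.53). Members with differences near 0 or below it, Ccl11, Cxcl5, Cxcl1 and Cx3cl1, thus stood beside members above 5.

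Genes of the wider pathway were counted from lists. Of 24 other chemokine ligand and receptor genes, 16 were tested, with 14 higher and 2 lower in the CD45 fraction (median 8.22). Among the largest were the monocyte receptor Ccr2 (11.96, SE 0.45), Pf4 (11.10, SE 0.31) and the neutrophil receptor Cxcr2 (10.28, SE 0.21), and the lower ones were the mucosal ligands Ccl28 (-2.82, SE 0.26) and Cxcl17 (-5.07, SE 0.77). Of 26 genes of chemokine receptor signalling, 23 were higher and 1 lower (median 3.57). Rgs1, a brake on G protein signalling in leukocytes (11.23, SE 0.35), Vav1 (10.04, SE 0.14) and Was (9.91, SE 0.13) were among the largest, and Gng2, a G protein gamma subunit, was lower (-0.46, SE 0.10). Of 20 genes of NF-kappaB, interferon and cytokine signalling, regulators of chemokine transcription that include the NF-kappaB inhibitors Nfkbia (3.86) and Tnfaip3 (6.004), the 19 tested were all higher (median 3.82), led by the cytokines Tnf (10.83, SE 0.16), Il1a (10.68, SE 0.30) and Il1b (10.18, SE 0.19) and the transcription factor Irf8 (7.67, SE 0.14). Ccr2, Pf4, Cxcr2 and Il1b are also leukocyte genes, and the same fit called 41.4% of all genes higher.

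The second comparison asked whether KO and WT mice differed in the chemokine RNA of the flow-through. Of the 26 members tested, 1 was called, Ccl27a, higher in KO, and 0 were lower. Over all genes tested 1.42% were called higher and 0.151% lower (1.57% in either direction). In this fraction 3 members had all KO libraries above all WT libraries (Ccl27a, Cx3cl1 and Ccl3) and 0 had them below, against 6.62% and 4.90% of all genes. The same 3 members had an unadjusted p under 0.05, against 11.0% of all genes. The median log2 fold change of the members was -0.06, and that of all genes was -0.01. The means and SDs of the genotype comparisons are CPM scaled by TMM within a fraction, and values per library are CPM.

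Ccl27a lay at 5.01, 4.91, 4.09 and 5.21 CPM in the WT libraries and at 8.01, 7.498 and 7.48 CPM in the KO libraries. The KO libraries were all higher, with a gap between the groups wider than the range of either. KO libraries averaged 7.75 ± 0.354 CPM (SD, n = 3) and WT libraries 4.77 ± 0.414 CPM (SD, n = 4). In edgeR the log2 fold change was 0.70 (SE 0.15, adjusted p = 0.0292). The call held in 6 of 14 alternative settings. Leaving out flow-through WT replicate 2, 3 or 4 gave adjusted p values of 0.0829, 0.0947 and 0.0607. Leaving out KO replicate 1, 2 or 3 gave 0.141, 0.0902 and 0.0654, and the joint fit of 14 libraries gave 0.502, with log2 fold changes between 0.64 and 0.90 in all 14 settings.

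Ccl27a (chromosome 4, 41769467 to 41774247, minus strand) is a gene whose reads are hard to place. Of its 50-base exon words, 45% occur in other annotated genes, chiefly the near copies Gm20878 and Gm13306. Gm13306 had 1 to 7 counts in the WT and 5 to 13 in the KO flow-through libraries, Gm20878 had 0 to 3 and 0 to 5, and Ccl27a had 86 to 128 and 144 to 204. Il11ra1, which overlaps the end of Ccl27a on the opposite strand, lay at 9.04 to 11.4 CPM in WT and 9.53 to 11.97 CPM in KO libraries. The share of Ccl27a counts that belongs to its near copies was not tested.

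Cx3cl1 lay at 41.6, 33.8, 26.6 and 32.5 CPM in the WT flow-through and at 46.6, 43.4 and 51.4 CPM in KO. The groups did not overlap, with WT replicate 1 close to the lowest KO library. The means were 47.6 ± 3.58 CPM (SD, n = 3) and 33.4 ± 6.48 CPM (SD, n = 4), and the log2 fold change of 0.51 (SE 0.13, adjusted p by edgeR = 0.0853) did not pass. It passed in 3 of 14 alternative settings, DESeq2 (adjusted p = 0.0188), no filter on low counts (7.65e-05) and without flow-through WT replicate 1 (0.0098). The 6 neuron markers summed to 297 to 433 CPM in WT and 399 to 562 CPM in KO, with 1 of them called higher and 1 lower. Their median log2 fold change was 0.76 (from -0.42 to 1.19), against -0.01 over all genes. Of the 6, 3 had all KO libraries above all WT libraries and 1 had them below, against 6.62% and 4.90% of all genes. The part of these markers in the Cx3cl1 value was not tested. Cx3cr1, the receptor of fractalkine on microglia, lay at 0.422 to 0.854 CPM in WT and 1.21 to 1.77 CPM in KO flow-through libraries (1.25, SE 0.31, adjusted p = 0.0723).

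Ccl3 was the third member without overlap, at low counts. It lay at 0.422, 0.451, 0.761 and 0.651 CPM in WT and 1.05, 0.989 and 0.880 CPM in KO, or 9 to 24 counts a library (0.78, SE 0.33, edgeR adjusted p = 0.38). The genotypes overlapped in each of the other 23 members tested. Ccl2 lay at 71.1, 58.6, 61.9 and 71.5 CPM in WT and 66.4, 71.1 and 32.3 CPM in KO (-0.19, SE 0.26, adjusted p = 0.856). Cxcl1 lay at 75.2, 93.2, 82.7 and 126 CPM in WT and 65.7, 117 and 37.99 CPM in KO (-0.33, SE 0.41, adjusted p = 0.844). In both genes KO replicate 3 was low and the other KO libraries were within or near the WT range. KO replicate 3 was also the lowest flow-through library for Ccl7, Cxcl2 and Cxcl5, and the highest for Cxcl10 (45.3 CPM), Cxcl14 (94.5 CPM) and the sum of 5 oligodendrocyte markers (31290 CPM, others 18809 to 26047). Of the other pathway lists, 0 of 5 further chemokine genes and 0 of 18 of these regulators were called in the flow-through. Of 21 receptor signalling genes tested, Ptk2b, a calcium-activated tyrosine kinase also found in neurons, was called higher (0.83, SE 0.17, adjusted p = 0.0436).

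**Figure D3:**
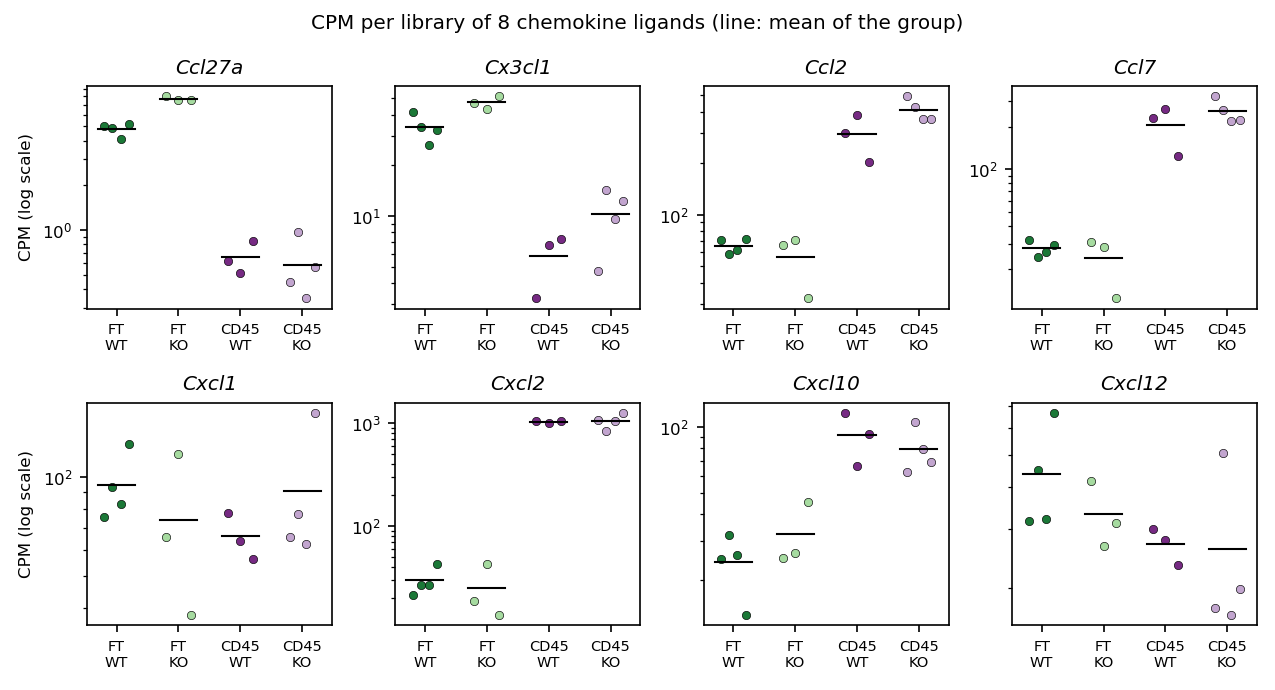
CPM per library on log axes for 8 ligands in the 4 groups (FT, flow-through), with a line at the mean of each group. The 3 KO flow-through libraries of Ccl27a (7.48 to 8.01 CPM) lie above the 4 WT libraries (4.09 to 5.21 CPM), and the genotypes overlap in the CD45 fraction in all 8 panels.

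The third comparison asked the same of the CD45 cells. In the 36 members tested, edgeR called 0, as it did over all 15660 genes (0.00% called). At an unadjusted p under 0.05 there was 1 member, against 4.43% of all genes, and DESeq2 called 0 members too. No member had genotypes without overlap, against 2.47% of all genes with KO above WT and 2.87% with KO below (5.34% in all). The median log2 fold change of the members was 0.07 and that of all genes 0.02.

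Ccl2, the member with an unadjusted p under 0.05, lay at 301, 384 and 202 CPM in WT and at 493, 425, 360 and 364 CPM in KO CD45 libraries. WT replicate 2 lay among the KO libraries, and WT replicate 3 was the lowest. KO libraries averaged 407 ± 51.9 CPM (SD, n = 4) and WT libraries 298 ± 86.3 CPM (SD, n = 3). In edgeR the log2 fold change was 0.45 (SE 0.19, adjusted p = 0.974). Ccl7 lay at 229, 265 and 124 CPM in WT and 327, 261, 217 and 223 CPM in KO (0.30, SE 0.24, adjusted p = 0.974). Ccl9 was at 0.38 (SE 0.17, unadjusted p = 0.0517) by the same edgeR test. WT replicate 3, the lowest library for Ccl2, Ccl7 and Ccl9, also had the lowest sum of monocyte and macrophage markers, and their part was not tested.

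None of the abundant members of the CD45 cells was called between genotypes. Cxcl2 lay at 1057, 1000 and 1056 CPM in WT and 1083, 839, 1054 and 1274 CPM in KO, a log2 fold change of 0.01 (SE 0.14). Ccl3 was at 0.13 (SE 0.13), Ccl4 at -0.10 (SE 0.15) and Ccl6 at 0.18 (SE 0.17), and Ccl9 had the larger difference of 0.38 given above. Among receptors, Ccr1 was at -0.14 (SE 0.11), Cxcr4 at -0.19 (SE 0.14) and Ccrl2 at -0.17 (SE 0.28). The widest errors were those of members with few counts, such as Cxcl9 (-1.46, SE 0.81), and of Ackr1 (0.50, SE 0.57). None of 14 further chemokine genes, 26 signalling genes or 19 regulators of chemokine transcription was called, and Il6, a cytokine, had the smallest p of the regulators (0.57, SE 0.17, edgeR adjusted p = 0.974).

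**Figure D4:**
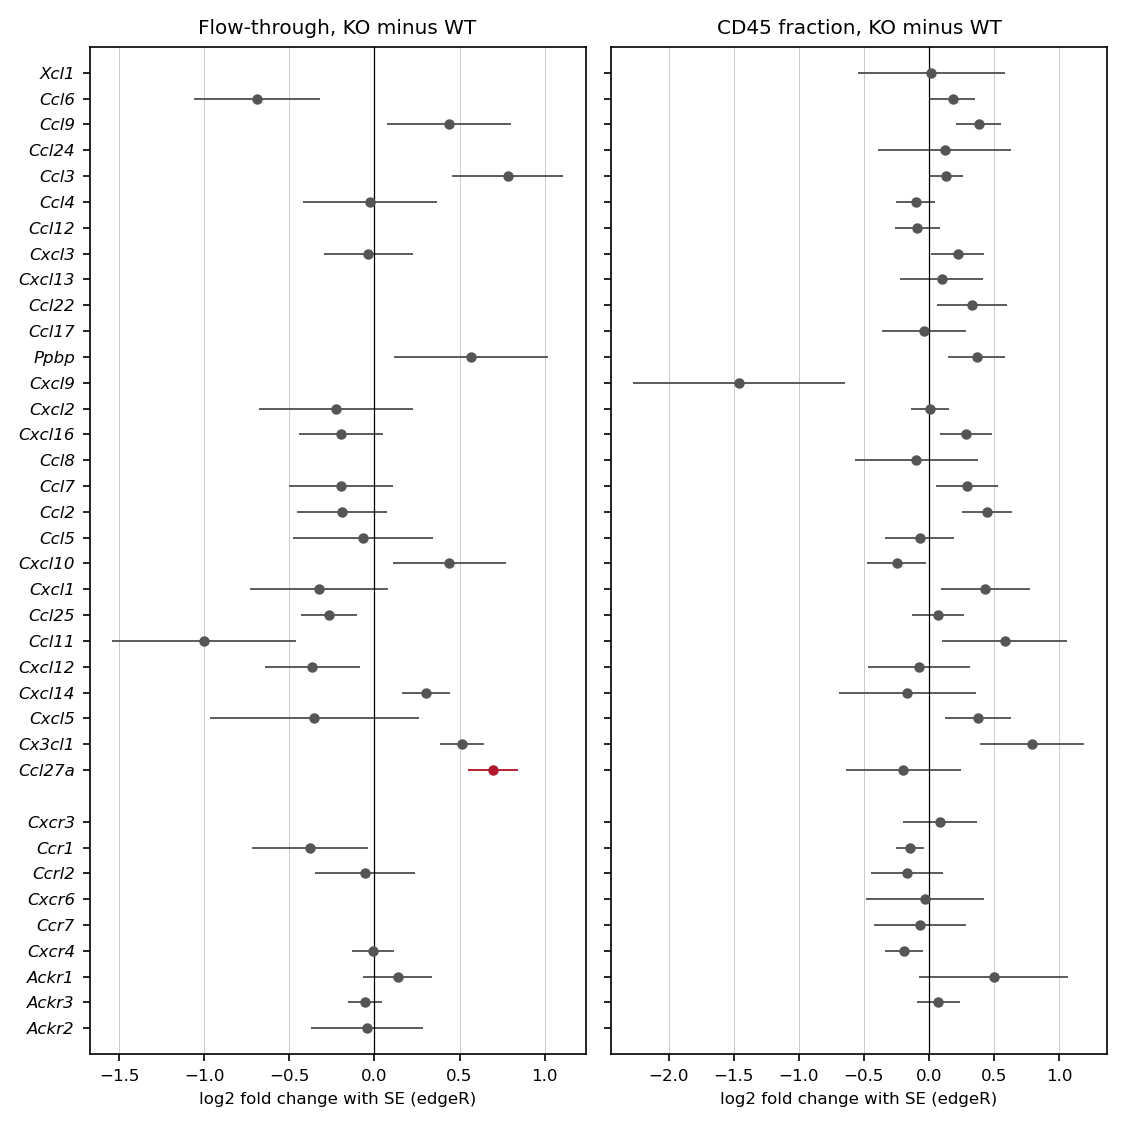
Log2 fold change (KO minus WT) from edgeR, with an SE derived from the test's F statistic, for each member tested in the flow-through (left) and the CD45 fraction (right), in the order of the plot of levels, on axes of different range. Only Ccl27a in the flow-through, in red at 0.70, passed the adjusted threshold, and members without a point were not tested in that fraction.

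The last comparison tested whether the genotype difference itself differed between fractions. EdgeR called 0 of 37 members and 0 of 18098 genes (0.00%). The 37 include 11 members too low to test between genotypes in the flow-through, and Ackr2, too low in the CD45 fraction. Xcl1 and Cxcr3 had no count in the flow-through at all. For such members the test cannot decide, because 1 fraction holds too few counts to give a genotype difference. At an unadjusted p under 0.05 there were 3 members, against 7.21% of all genes, and DESeq2 called 0 members. These were Ccl3 (CD45 minus flow-through -0.66, SE 0.27), Ccl6 (0.86, SE 0.39) and Ccl27a (-0.91, SE 0.39), each with an adjusted p of 0.674 or 0.675. For Ccl27a the KO minus WT difference was 0.70 in the flow-through and -0.20 (SE 0.44) in the CD45 fraction, and the test of the difference did not pass.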

How the data were processed

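RNA from bead-separated cortex was made into TruSeq Stranded mRNA libraries with 14 cycles of PCR, per the labels' protocols. The values used are the raw counts per gene deposited by the authors in a table for each fraction, and the normalized tables were not used. Trim Galore, FastQC, STAR 2.7.9a, DESeq2 and the GRCm38 build are listed in the submitters' processing notes. The counting tool and its strand setting are not given in the sources used, so overlapping genes are reported as uncertain.

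Gene names, positions and exon lengths came from GENCODE M21 (33130 of 33223 genes matched). EdgeR 4.0.16 (R 4.3.3) fitted counts by quasi-likelihood with robust estimation, TMM scaling and filterByExpr (minimum count 10, total 15), within a fraction for genotype and over 14 libraries with 1 mean per group for fractions and the interaction. P-values were adjusted over all genes tested. Each SE is the absolute log2 fold change divided by the square root of the test's F statistic, and is not a fitted standard error. DESeq2 1.42.0, other scalings, no filter, a joint fit, WT libraries only and leaving out each library were alternatives. Scripts were tested on simulated data. The members and lists were chosen with earlier results of these data known. All 38 members may be named, and up to 4 genes of each list, by largest change among those called or smallest p. Some genes that this rule names are not reported here. Replicate numbers are names only, and no label names an animal. The tests therefore reflect only how far these libraries differ, a spread that may be technical, and whether the fractions share animals is not given.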

Additional observations from a re-analysis of the deposited data

Results flagged for a closer look

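In 6 of 62 tests, each of 1 member in 1 group of 4 libraries, a single library lay far from the others by Dixon's criterion, which chance meets in about 1 test in 20. In the CD45 KO group, Ccl5 was at 23.0 CPM and Ccr1 at 947 CPM in replicate 3, where the next libraries were at 13.5 and 816.5 CPM. Replicate 3 had the fewest counts of all libraries (11574414). Cxcl1 was at 157 CPM and Cxcl14 at 68.5 CPM in CD45 KO replicate 4, where the next libraries were at 76.8 and 27.95 CPM. Cxcl12 was at 50.8 CPM in CD45 KO replicate 2, against 19.9 CPM in the next library. In the flow-through WT group, Cxcl5 was at 20.7 CPM in replicate 4, against 12.2 CPM in the next.

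The library labelled flow-through WT replicate 5, which the comparisons do not use, had 27 of the 37 members above all 4 other flow-through WT libraries. It was deposited with the CD45 counts and its 4 leukocyte genes summed to 3319 CPM. The count of 27 thus sets a library with CD45 markers beside flow-through libraries.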

How the results depend on the processing

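In the comparison of fractions, 30 of 32 called members were called in every one of up to 21 alternatives. Ccl25 was lost in some and turned to -0.20 with library totals, and Ackr1 was lost in 1. Cxcl1, Cxcl5 and Cxcl14 were called in some. Members called higher ranged from 26 to 29 and members called lower from 4 to 6. With library totals 1 member (Ccl27a) was lower by at least 3 log2 units, against 0. The all-gene median moved by -0.25 log2 units under upper-quartile scaling and by -0.53 with library totals. When flow-through WT replicate 5 was included under its label, the largest log2 fold changes shrank, as for Ccl3 to 6.08, and stayed called. In the flow-through, the members called higher in KO numbered 0 in the joint fit of 14 libraries, 2 with DESeq2, 2 with no filter and 0 with that library as labelled, and 0 to 2 when 1 library was left out. Over all genes, calls there ranged from 0 to 492 higher and 0 to 137 lower, against 235 and 25. No member was called in the CD45 fraction or in the interaction in any alternative. DESeq2 called 1 gene higher and 4 lower in the CD45 fraction and 3 and 42 in the interaction. No paired analysis was possible because replicate numbers were given in accession order and pair no samples. A total of 11 members were too low to test between genotypes in the flow-through, and differences there were not detectable at this depth.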
